A study of Homo sapiens with 14 samples.

Results

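A set of 10 long noncoding RNA genes were described here, of 23106 gene symbols counted, in PC3 and HCT116 cells in normoxia and in hypoxia. They are MIR210HG, MIR17HG, H19, NEAT1, MALAT1, PVT1, GAS5, SNHG1, SNHG5 and DANCR, taken from the count tables by gene symbol, and all 10 passed the filter on low counts in both cell lines. MIR210HG and MIR17HG were chosen by their hypoxia fold changes, among the widest in HCT116 and in PC3, respectively. Their hypoxia values are therefore given as a description, with no test, and so are their levels in normoxia, which form part of the same contrasts. The list as a whole was drawn up with earlier results of these data known.

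PC3 is a prostate carcinoma line and HCT116 a colorectal carcinoma line. Polyadenylated RNA was sequenced from PC3 cells (n = 4 per condition, DMEM/Hams F12 medium) and HCT116 cells (n = 3 per condition, McCoy's 5a medium) in normoxia (21% O2) or after 16 h in hypoxia (0.5% O2). Total counts per library were 98021966 to 123935458 in PC3 normoxia, 71228454 to 96159803 in PC3 hypoxia, 136931675 to 147934177 in HCT116 normoxia and 133067391 to 150630928 in HCT116 hypoxia. All 8 genes chosen as a check of hypoxia, among them CA9, NDRG1 and BNIP3, rose in both lines, although without PC3 normoxia replicate 3 CA9, VEGFA and ADM did not pass in PC3 (adjusted p = 0.0557 to 0.0688). Of the marker lists, 5 of 5 epithelial genes were above 1 CPM (counts scaled to library size, by TMM) in every group, at a summed 3555 to 5147 CPM. Of 6 prostate markers 3 were above 1 CPM in PC3, with HOXB13 present and KLK3 at 0, and of 6 colon markers only CDX2 was above 1 CPM in HCT116. The sums over 4 fibroblast, 4 leukocyte and 3 endothelial markers reached at most 12.6, 3.61 and 3.03 CPM in any library. Each line is grown in its own medium, so that line and medium cannot be told apart, and in such bulk samples fewer cells with a transcript and less of it per cell cannot be told apart either.

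Long noncoding RNAs are transcribed and often spliced like messenger RNAs but are not translated into long proteins. Some are chiefly carriers: microRNA host genes are cut by Drosha to release microRNA hairpins, and small nucleolar RNA (snoRNA) host genes carry in their introns the guides that direct the chemical modification of ribosomal RNA. Others act as the RNA itself, as NEAT1 does in building the nuclear bodies called paraspeckles. The hypoxia-inducible factors (HIF) bind a short core motif in DNA and raise transcription, and miR-210 is the microRNA best known as their target.

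The microRNAs carried by MIR210HG, H19 and MIR17HG are shown because they are the products for which these genes are studied. The mature sequences are from RefSeq (GRCh38.p14), written 5′ to 3′, and capitals mark the seed, bases 2 to 8, with which a microRNA pairs to its targets. MIR210HG holds miR-210, H19 holds miR-675 and MIR17HG holds the miR-17-92 cluster, of which miR-17-5p and miR-20a-5p share a seed, as do miR-19a-3p and miR-19b-3p.
hsa-miR-210-3p (MIR210HG, chr11:568112-568133, minus strand): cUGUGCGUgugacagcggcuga
hsa-miR-675-5p (H19, chr11:1996800-1996822, minus strand): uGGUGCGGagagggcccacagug
hsa-miR-17-5p (MIR17HG, chr13:91350618-91350640, plus strand): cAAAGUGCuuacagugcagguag
hsa-miR-20a-5p (MIR17HG, chr13:91351072-91351094, plus strand): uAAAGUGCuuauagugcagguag
hsa-miR-18a-5p (MIR17HG, chr13:91350756-91350778, plus strand): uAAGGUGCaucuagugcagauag
hsa-miR-19a-3p (MIR17HG, chr13:91350939-91350961, plus strand): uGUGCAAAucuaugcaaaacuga
hsa-miR-19b-3p (MIR17HG, chr13:91351245-91351267, plus strand): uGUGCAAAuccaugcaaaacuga
hsa-miR-92a-3p (MIR17HG, chr13:91351361-91351382, plus strand): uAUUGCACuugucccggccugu

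The data do not measure these microRNAs. Polyadenylated RNA holds the host transcript but not the mature product, and of the rows for the hosted hairpins MIR17 had 0 counts in all 14 libraries, which allows up to 3 counts in each, while MIR210 had 4 counts and 1 count in the PC3 normoxia and PC3 hypoxia libraries of replicate 4 and 0 elsewhere. For these microRNAs every value below is therefore of the host gene.

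MIR210HG was the gene that rose most among the 10, in both lines. It lies on the minus strand at chr11:565657-568457 (GRCh37), with 2 exon blocks, and miR-210 lies within an intron. In PC3 its level was 3.48, 2.00, 2.60 and 2.24 CPM in normoxia and 5.14, 6.03, 6.39 and 5.68 CPM in hypoxia (replicates 1 to 4), and in HCT116 it was 0.482, 0.624 and 0.328 CPM in normoxia and 8.49, 8.96 and 7.91 CPM in hypoxia. All hypoxia libraries lay above all normoxia libraries of the same line. The log2 fold change (hypoxia over normoxia, here and throughout unless stated) was 1.17 ± 0.18 (SE) in PC3, 2.26-fold, and 4.15 ± 0.18 in HCT116, 17.8-fold. HCT116 thus began at 0.478 ± 0.148 CPM (SD, n = 3), below the 2.58 ± 0.649 CPM (SD, n = 4) of PC3, and in hypoxia stood at 8.45 ± 0.5255 CPM against 5.81 ± 0.530 CPM.

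The promoter window of MIR210HG, 250 bases before to 50 after the annotated start (RefSeq, GRCh38.p14, chr11:568408-568707, minus strand), is shown because it belongs to the member with the widest change. Capitals mark the letters ACGTG and GCGTG, which were searched on both strands as the HIF core.
MIR210HG promoter: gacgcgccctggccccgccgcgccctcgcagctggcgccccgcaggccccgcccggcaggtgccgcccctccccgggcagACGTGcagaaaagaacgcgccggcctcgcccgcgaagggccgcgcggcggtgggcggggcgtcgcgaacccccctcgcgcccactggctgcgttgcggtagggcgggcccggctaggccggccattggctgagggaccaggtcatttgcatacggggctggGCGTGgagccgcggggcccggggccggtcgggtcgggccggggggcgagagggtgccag
It holds 2 such matches, 1 of them ACGTG. Of the 8 members with a promoter window, 4 held a match to either spelling (MIR210HG, MALAT1, SNHG1 and DANCR), and 48.45% of all 35116 windows did. ACGTG alone was found in MIR210HG only among the members, and in 21.41% of all windows. The E-box CACGTG, which contains ACGTG, was in none of the members' windows and in 7.256% of all. These matches are letters in a window of this length, and binding was not measured in the data used here.

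The gene next to MIR210HG on the left, RASSF7, lies 1632 bases away on the opposite strand. Its log2 fold change was 0.44 ± 0.13 in PC3 (adjusted p = 0.0552) and 0.87 ± 0.07 in HCT116 (adjusted p = 5.2e-06), so that it rose in HCT116. PHRF1, on the right, gave −0.06 ± 0.12 and 0.23 ± 0.09 (adjusted p = 0.769 and 0.0814).

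Genes described as targets of miR-210 were listed by name from common knowledge and were all 16 tested. In PC3 1 rose and 3 fell, and in HCT116 2 rose and 7 fell, where 6.03% and 5.29% of all genes tested rose and fell in PC3 and 14.6% and 11.3% in HCT116. The medians of the list were −0.08 and −0.18 on the log2 scale, beside 0.00 for all genes tested in each line. ISCU, an iron-sulphur cluster scaffold, fell by 0.22 (SE 0.06, adjusted p = 0.0432) in PC3 and by 0.47 (SE 0.07, adjusted p = 6.86e-04) in HCT116. RAD52 fell in both lines as well. With 1 library left out, ISCU in PC3 reached an adjusted p of 0.137 (without normoxia replicate 3) and RAD52 of 0.0937 (PC3, without normoxia replicate 2) and 0.0606 (HCT116, without hypoxia replicate 1). EFNA3, an ephrin ligand whose repression by miR-210 is described in endothelial cells, rose in both, by 1.08 ± 0.12 (adjusted p = 8.99e-04) and by 0.82 ± 0.08 (adjusted p = 3.5e-05).

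MIR17HG was lower in hypoxia in both lines. The gene spans chr13:91999940-92049846 (GRCh37, plus strand), and its cluster of 6 microRNAs, often called oncomiR-1, is a known target of MYC. In PC3 its level was 2.18, 2.80, 2.92 and 4.17 CPM in normoxia and 1.08, 1.02, 1.10 and 0.447 CPM in hypoxia, and in HCT116 it was 4.04, 3.91 and 5.67 CPM in normoxia and 2.46, 1.98 and 2.62 CPM in hypoxia. The conditions did not overlap in either line, and the lowest value was that of PC3 hypoxia replicate 4, which stood well below the other 3. The log2 fold changes were −1.71 ± 0.29 and −0.93 ± 0.17. In normoxia HCT116 had 4.54 ± 0.982 CPM and PC3 3.02 ± 0.836 CPM, and these libraries overlapped. MIR17HG shares 2639 of its 12894 exon bases with a long noncoding RNA on the opposite strand, which has no row of its own.

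Genes of MYC, its partners and E2F were listed by symbol, and 7 were tested in each line. In PC3 1 passed, where 11.3% of all genes did, namely MXI1, an antagonist of MYC, which rose by 0.87 ± 0.09 on the log2 scale (adjusted p = 6.56e-04). In HCT116 3 passed, where 25.9% of all genes did. MXI1 rose there by 0.83 ± 0.10 (adjusted p = 1.5e-04), MYC by 0.23 ± 0.06 (adjusted p = 0.0231), and E2F3 fell by 0.23 (SE 0.07, adjusted p = 0.0249). With 1 library left out, MYC reached an adjusted p of 0.130 (without HCT116 normoxia replicate 2) and E2F3 of 0.0875 (without HCT116 hypoxia replicate 2). MYC in PC3 was at 0.01 ± 0.07 (adjusted p = 0.931).

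H19, the imprinted transcript that hosts miR-675, differed most between the lines of the 10. It lies at chr11:2016396-2025782 (GRCh37, minus strand), in 4 exon blocks, and is abundant in fetal tissue. In PC3 it gave 20 to 54 counts per library, or 0.302, 0.391, 0.436 and 0.224 CPM in normoxia and 0.263, 0.362, 0.558 and 0.298 CPM in hypoxia. In HCT116 it was at 4.31, 3.49 and 5.18 CPM in normoxia and at 8.02, 11.02 and 11.1 CPM in hypoxia. The lines did not overlap, and the conditions were apart in HCT116 and overlapped in PC3. The hypoxia change was 1.23 ± 0.16 in HCT116 (adjusted p = 2.92e-04) and 0.14 ± 0.32 in PC3 (adjusted p = 0.803). The difference between these, 1.06 ± 0.36, did not pass the test (adjusted p = 0.146). With the replicate block within line it was 1.10 ± 0.26 (adjusted p = 0.0242) and with DESeq2 1.05 (adjusted p = 0.0477). Of all genes 2.32%, 8.43% and 6.03% passed in these settings, in that order, and the HCT116 numbers did not pair the libraries. Between the lines in normoxia H19 differed by 3.68 ± 0.25 on the log2 scale, 12.8-fold higher in HCT116 (adjusted p = 2.03e-09). IGF2, its imprinted partner 124560 bases away, rose in PC3 by 0.70 ± 0.12 (adjusted p = 0.00822) and in HCT116 by 0.25 ± 0.07 (adjusted p = 0.0296).

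**Figure D1:**
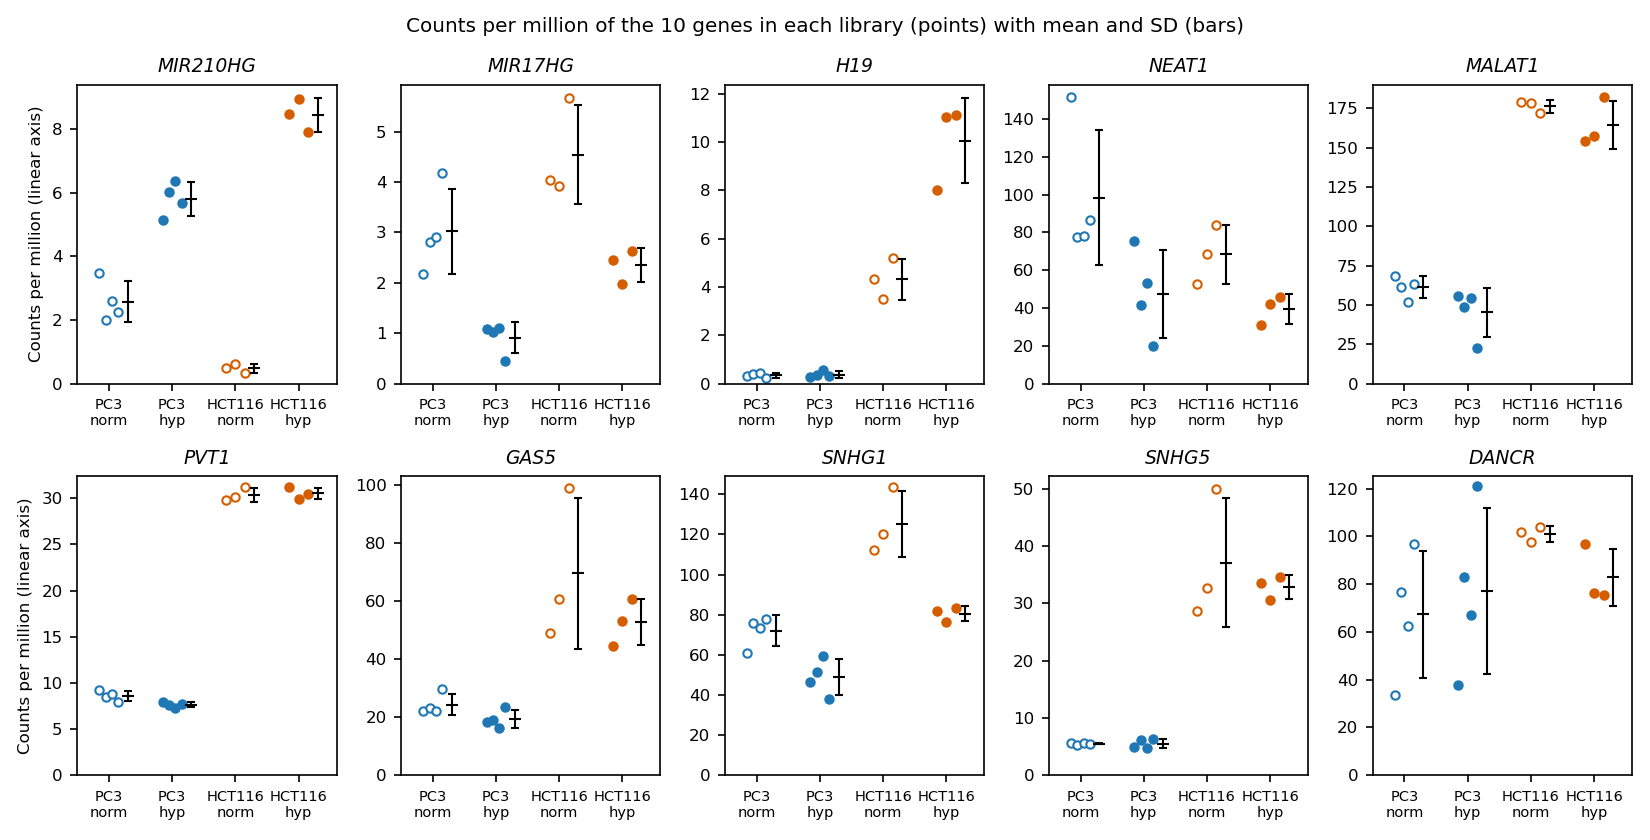
CPM of the 10 genes (linear axis from 0) in each library of PC3 (blue, n = 4 per condition) and HCT116 (orange, n = 3 per condition), open points for normoxia and filled points for hypoxia, with the mean and SD beside them in black. MIR210HG in HCT116 lies at 0.328 to 0.624 CPM in normoxia and at 7.91 to 8.96 CPM in hypoxia, and the PC3 normoxia library of replicate 1 stands at 152 CPM for NEAT1.

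NEAT1, the scaffold of paraspeckles, was lower in hypoxia in HCT116 and in each PC3 pair. It is at chr11:65190245-65213011 (GRCh37, plus strand), where a short and a long transcript share their first part. The short one is polyadenylated and the end of the long one is not, and a count per gene does not tell them apart. In PC3 its level was 152, 77.8, 77.9 and 86.6 CPM in normoxia and 75.4, 41.4, 53.5 and 19.7 CPM in hypoxia, and in HCT116 it was 52.5, 68.5 and 84.0 CPM in normoxia and 30.7, 42.3 and 45.9 CPM in hypoxia. No hypoxia library reached a normoxia library of the same line, the highest PC3 hypoxia value coming from the number whose normoxia value was also the highest. In HCT116 the gene fell by 0.77 on the log2 scale (SE 0.17, adjusted p = 0.00648), a call lost in 1 fit over both lines (adjusted p = 0.187). The PC3 change was −1.05 ± 0.38 (adjusted p = 0.107), and with the replicate number as a block, since PC3 libraries of the same number deviate together, it was −1.13 ± 0.23 (adjusted p = 0.0127). The 4 PC3 pairs gave −1.01, −0.91, −0.54 and −2.14. The PC3 gene also passed in the fit over both lines (adjusted p = 0.0366) and without hypoxia replicate 1 (adjusted p = 0.0421), and without both libraries of number 1 the change was −1.07 (adjusted p = 0.0571). With 1 library left out its adjusted p reached 0.222 (without PC3 hypoxia replicate 2), and the change ranged from −1.37 to −0.75.

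Genes for 13 paraspeckle proteins were tested in each line. In PC3 1 passed, where 11.3% of all genes did, and in HCT116 2 passed, where 25.9% of all genes did. PSPC1 fell in PC3 by 0.29 (SE 0.07, adjusted p = 0.0243). In HCT116 HNRNPK rose by 0.22 ± 0.06 (adjusted p = 0.0211) and CPSF7 fell by 0.23 (SE 0.07, adjusted p = 0.0394). Each of these 3 calls was lost without 1 library, at an adjusted p of 0.0855 (PSPC1, without PC3 normoxia replicate 3), 0.0881 (HNRNPK, without HCT116 normoxia replicate 2) and 0.132 (CPSF7, without HCT116 hypoxia replicate 2). NONO and SFPQ, which bind NEAT1 along its length, gave −0.08 and −0.05 in PC3 and 0.14 and −0.00 in HCT116, none of them past the threshold (adjusted p = 0.465, 0.681, 0.139 and 0.984).

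MALAT1, a nuclear speckle RNA that lies downstream of NEAT1 at chr11:65265111-65275544 (GRCh37, plus strand), was not past the threshold in either line. Its PC3 levels were 68.3, 61.2, 51.8 and 63.5 CPM in normoxia and 55.6, 49.0, 54.6 and 22.4 CPM in hypoxia, and in HCT116 they were 179, 178 and 172 CPM in normoxia and 154, 157 and 182 CPM in hypoxia. The conditions overlapped in both lines, with PC3 hypoxia replicate 4 the lowest library. The log2 fold changes were −0.42 ± 0.25 (adjusted p = 0.300) and −0.08 ± 0.07 (adjusted p = 0.406). In normoxia MALAT1 was 2.88-fold higher in HCT116, 1.53 ± 0.21 on the log2 scale (adjusted p = 7.83e-06). MALAT1 shares 8121 of its 10434 exon bases with TALAM1 on the opposite strand, which has no row of its own. FRMD8, 9249 bases to the left of NEAT1, fell in PC3 by 0.27 (adjusted p = 0.0189).

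PVT1 lies on chromosome 8, with MYC 51575 bases to its left, and differed between the lines much more than between conditions. Its PC3 levels were 9.24, 8.41, 8.74 and 7.95 CPM in normoxia and 7.92, 7.60, 7.28 and 7.69 CPM in hypoxia, while in HCT116 they were 29.8, 30.1 and 31.2 CPM in normoxia and 31.2, 29.9 and 30.5 CPM in hypoxia. The PC3 conditions just failed to overlap and the HCT116 conditions overlapped. The log2 fold changes were −0.17 ± 0.09 (adjusted p = 0.242) and 0.03 ± 0.06 (adjusted p = 0.800). In normoxia it was 3.54-fold higher in HCT116 (1.82 ± 0.07 on the log2 scale, adjusted p = 1.94e-12).

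SNHG1, a host of 8 small nucleolar RNA genes at chr11:62619450-62623425 (GRCh37, minus strand), fell in both lines. Its PC3 levels were 60.7, 75.8, 73.2 and 77.8 CPM in normoxia and 46.4, 51.2, 59.3 and 38.2 CPM in hypoxia, and its HCT116 levels were 112, 120 and 144 CPM in normoxia and 81.9, 76.2 and 83.2 CPM in hypoxia. Neither line had overlapping conditions. The gene fell by 0.55 (SE 0.13, adjusted p = 0.0253) in PC3 and by 0.62 (SE 0.09, adjusted p = 7.78e-04) in HCT116. The PC3 call was lost without normoxia replicate 2, 3 or 4 or hypoxia replicate 2 (adjusted p = 0.0655 to 0.0817). SLC3A2, 51 bases away on the opposite strand, gave −0.02 ± 0.11 and −0.11 ± 0.06 (adjusted p = 0.936 and 0.211).

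Of 36 rows for small RNAs hosted at these loci, 2 passed the filter in PC3 and 1 in HCT116. Polyadenylated RNA was sequenced, so reads of a mature small RNA in these rows cannot be told apart from reads of its host transcript. SNORD22, within SNHG1, gave 0.772 ± 0.172 CPM in PC3 normoxia and 0.278 ± 0.131 CPM in PC3 hypoxia, and 0.557 ± 0.0945 and 0.256 ± 0.0511 CPM in HCT116. It fell by 1.45 (SE 0.33, adjusted p = 0.0226) and by 1.11 (SE 0.28, adjusted p = 0.0141), the PC3 call being lost without normoxia replicate 2 (adjusted p = 0.0789). SNORD76, within GAS5, gave −1.12 ± 0.34 in PC3 (adjusted p = 0.0644).

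GAS5 hosts 10 small nucleolar RNA genes and is known to accumulate when cells stop growing, its spliced RNA being a target of nonsense-mediated decay. Its PC3 levels were 22.1, 23.1, 22.2 and 29.7 CPM in normoxia and 18.2, 18.9, 16.2 and 23.5 CPM in hypoxia, and in HCT116 they were 49.1, 60.8 and 99.0 CPM in normoxia and 44.7, 53.3 and 60.6 CPM in hypoxia. Replicate 4 was the highest of both PC3 conditions, and HCT116 normoxia replicate 3 stood far above its group. The log2 fold changes were −0.34 ± 0.13 in PC3 (adjusted p = 0.132) and −0.39 ± 0.21 in HCT116 (adjusted p = 0.193). With the replicate block the PC3 change was −0.34 ± 0.05 (adjusted p = 0.00511), the 4 pairs lying between −0.28 and −0.46. GAS5 also passed in PC3 without hypoxia replicate 4 (adjusted p = 0.0387) and in HCT116 without normoxia replicate 1 (adjusted p = 0.0265), while without HCT116 normoxia replicate 3 the HCT116 change was −0.05 (adjusted p = 0.794). Without PC3 normoxia replicate 4 the PC3 adjusted p was 0.296. GAS5 lies at chr1:173827697-173838020 (GRCh37, minus strand).

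SNHG5, at chr6:86360209-86388650 (GRCh37, minus strand), hosts SNORD50A and SNORD50B and did not pass the threshold in either line. Its PC3 levels were 5.61, 5.32, 5.53 and 5.51 CPM in normoxia and 4.85, 6.04, 4.81 and 6.23 CPM in hypoxia, and in HCT116 they were 28.7, 32.7 and 50.01 CPM in normoxia and 33.5, 30.6 and 34.6 CPM in hypoxia. The conditions overlapped in both lines. Its log2 fold changes were −0.00 ± 0.11 (adjusted p = 1.00) and −0.16 ± 0.16 (adjusted p = 0.504), the latter being 0.11 without HCT116 normoxia replicate 3. Between the lines in normoxia it was 6.76-fold higher in HCT116 (2.76 ± 0.16, adjusted p = 2.05e-10).

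DANCR, an RNA known to hold back differentiation, at chr4:53578492-53589790 (GRCh37, plus strand), differed more between PC3 replicate numbers than between conditions. Its PC3 levels were 33.5, 76.8, 62.6 and 96.9 CPM in normoxia and 37.6, 83.2, 67.0 and 121 CPM in hypoxia, and in HCT116 they were 102, 97.6 and 104 CPM in normoxia and 96.7, 76.3 and 75.6 CPM in hypoxia. Each PC3 number was higher in hypoxia than in normoxia, by 0.17, 0.12, 0.10 and 0.32 on the log2 scale, although the conditions overlapped almost fully. The PC3 change was 0.20 ± 0.36 (adjusted p = 0.761), and with the replicate block 0.18 ± 0.06 (adjusted p = 0.0492). In HCT116 it was −0.27 ± 0.10 (adjusted p = 0.0591), with conditions that did not overlap, and it passed with DESeq2 (adjusted p = 0.0185), with the other scalings and without hypoxia replicate 1 (adjusted p = 0.00414). DANCR shares 127 exon bases with ERVMER34-1 on the opposite strand, which fell in HCT116 by 0.28 (adjusted p = 0.0391).

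**Figure D2:**
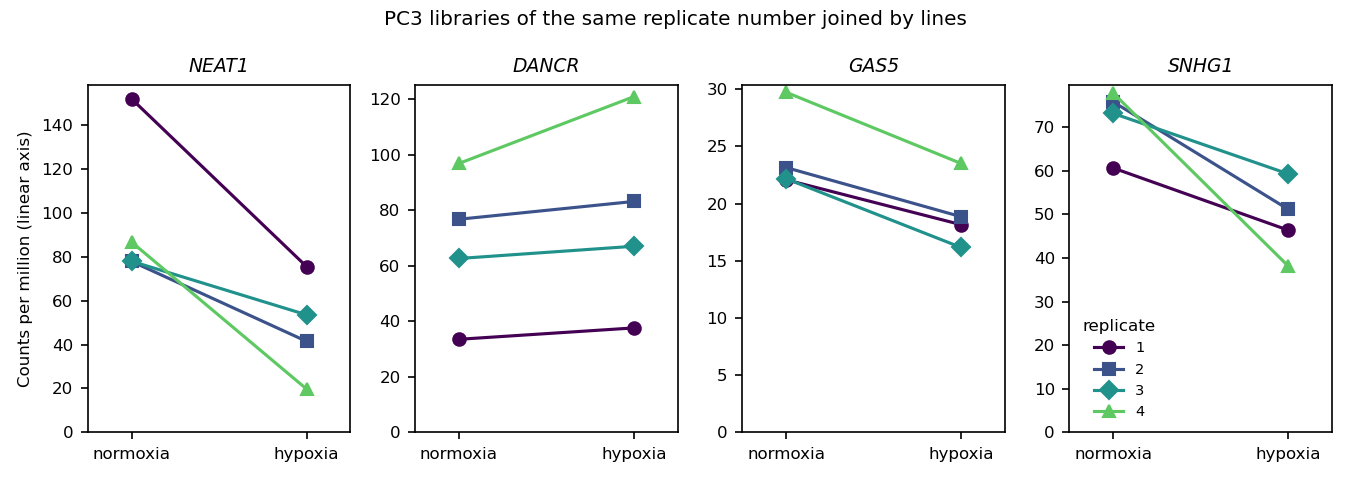
CPM (linear axis from 0) of NEAT1, DANCR, GAS5 and SNHG1 in PC3, with a line joining the normoxia and the hypoxia library of each of the 4 replicate numbers. The lines of DANCR run nearly level from 33.5 to 96.9 CPM up to 37.6 to 121 CPM, each higher in hypoxia, and those of NEAT1, GAS5 and SNHG1 all slope down.

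Runs of C and T at the start of a transcript mark the terminal oligopyrimidine genes, a class to which snoRNA hosts are known to belong. A stretch of 30 bases, from 10 before the annotated start, is shown for 3 of the hosts because a run of at least 5 such bases, beginning with C within 10 bases of the start, was searched there on the gene's own strand. Capitals mark the run, where there is one (RefSeq, GRCh38.p14).
SNHG5: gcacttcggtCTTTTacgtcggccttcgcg
DANCR: tgcgcgccccgCCCTTgcccagagtcttcc
SNHG1: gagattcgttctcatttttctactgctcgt
The run was present in 4 of the 8 members with a window (SNHG5, DANCR, MIR17HG and 1 of 2 MALAT1 windows) and in 33.47% of all 35116 windows. The window of GAS5 lies at an upstream annotated start.

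Other noncoding snoRNA hosts, 12 of 18 named by symbol being in the files, lay mostly below 0 in hypoxia. In PC3 3 fell and none rose, and all 12 had values below 0, with a median of −0.31. Those of SNHG6, SNHG9, ZFAS1 and SNHG16 lay within their SE of 0 (−0.01 ± 0.09, −0.02 ± 0.25, −0.03 ± 0.10 and −0.06 ± 0.08). In HCT116 5 fell and none rose (edgeR, and likewise none by DESeq2 or at an unadjusted p under 0.05 in either line), 11 of 12 being below 0, with a median of −0.26. Over all genes tested 5.29% fell in PC3 and 11.3% in HCT116, and the median was 0.00 in each. SNHG12 fell by 0.57 (SE 0.14, adjusted p = 0.0307) in PC3 and by 0.94 (SE 0.10, adjusted p = 1.08e-04) in HCT116, and SNHG15 by 0.42 (SE 0.07, adjusted p = 0.00505) and by 0.46 (SE 0.08, adjusted p = 0.00191). SNHG8 fell in PC3 by 0.29, and SNHG7, SNHG3 and SNHG4 fell in HCT116 by 0.63, 0.57 and 0.44. With the replicate block 7 fell in PC3 and none rose, where 13.6% of all genes fell under the block. Without PC3 normoxia replicate 2, 3 or 4 or hypoxia replicate 2 or 3, 1 fell, and without HCT116 normoxia replicate 3, 6 fell and 2 rose. In these PC3 settings 3.83% to 8.63% of all genes passed in either direction, where 11.3% did with all libraries. The HCT116 setting had 23.4% of all genes past, where 25.9% passed with all libraries.

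**Figure D3:**
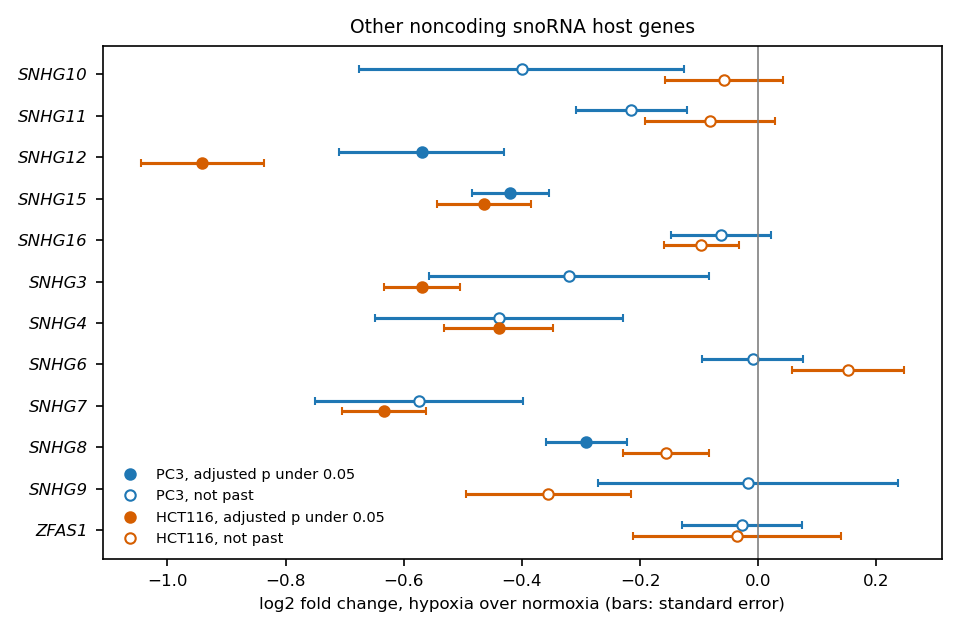
Log2 fold change (hypoxia over normoxia) of the other 12 noncoding snoRNA hosts in PC3 (blue) and HCT116 (orange), with the standard error as bars and filled points where adjusted p was under 0.05. SNHG12 lies farthest to the left, at −0.94 in HCT116, and no filled point lies to the right of 0.

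Factors of nonsense-mediated decay, the pathway that degrades many spliced snoRNA host transcripts, moved in both directions. In PC3 SMG6 rose by 0.23 and SMG8 fell by 0.28, of 10 tested, where 11.3% of all genes passed. In HCT116 SMG6 and SMG1 rose by 0.36 and 0.35, and UPF3A and UPF3B fell by 0.25 and 0.28, where 25.9% of all genes passed. SMG6 and SMG8 in PC3 did not pass without normoxia replicate 3 (adjusted p = 0.121 and 0.0552), nor UPF3A without HCT116 normoxia replicate 2 or UPF3B without HCT116 hypoxia replicate 1 (adjusted p = 0.0512 and 0.0581).

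Other microRNA hosts and often studied long noncoding RNAs were listed by symbol. Of 54 such symbols in the files 30 were tested in PC3, where 2 rose and 1 fell, and 29 in HCT116, where 5 rose and 1 fell, beside 11.3% and 25.9% of all genes tested that passed in either direction. UCA1, an RNA first known from bladder cancer, rose in both lines, from 43.9 ± 22.2 to 169 ± 97.8 CPM in PC3 (1.95 ± 0.44, adjusted p = 0.0217) and from 38.2 ± 3.30 to 84.9 ± 6.44 CPM in HCT116 (1.17 ± 0.08, adjusted p = 1.91e-06). TINCR rose in both as well, by 0.80 ± 0.19 (adjusted p = 0.0256) and by 0.66 ± 0.14 (adjusted p = 0.00704). DLEU2, the host of miR-15a and miR-16-1, fell in PC3 by 0.60 (SE 0.12, adjusted p = 0.0152), and MIR22HG, the host of miR-22, fell in HCT116 by 1.01 (SE 0.18, adjusted p = 0.00247). Without PC3 normoxia replicate 2 or 3 none of the PC3 genes passed, and without PC3 hypoxia replicate 2 or normoxia replicate 4, 1 did. Of all genes 3.99%, 3.83%, 5.04% and 6.31% passed in these settings, in that order.

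Across the 10 genes, 3 passed the threshold in PC3, 1 higher and 2 lower, and with the replicate block 6 did, 2 higher and 4 lower. Over all genes tested the shares were 11.3% and 28.5%, the latter 14.9% higher and 13.6% lower. In HCT116 5 passed, 2 higher and 3 lower, where 25.9% of all genes passed. MIR210HG and MIR17HG, chosen by their fold changes, are among these calls in both lines. Of the other 8 genes 1 passed in PC3, 4 with the replicate block, and 3 passed in HCT116. The medians over the 10 were −0.25 and −0.21 (log2), beside 0.00 for all genes. The conditions did not overlap for 5 of the 10 in PC3 and 6 of the 10 in HCT116, as for 20.9% and 42.5% of all genes. Since results of these data were known when the genes were listed, nothing is read from these counts. The difference of the hypoxia change between the lines (HCT116 minus PC3) was 2.97 ± 0.29 for MIR210HG and 0.76 ± 0.38 for MIR17HG, given as a description. Of the other 8 none passed with edgeR, where 2.32% of all genes did, and H19 alone was at an unadjusted p under 0.05 or passed with DESeq2. With the replicate block within line H19 and DANCR passed, DANCR at −0.47 ± 0.10 (adjusted p = 0.0176). Of all genes 6.03% passed with DESeq2 and 8.43% with the block, and the HCT116 numbers did not pair the libraries.

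**Figure D4:**
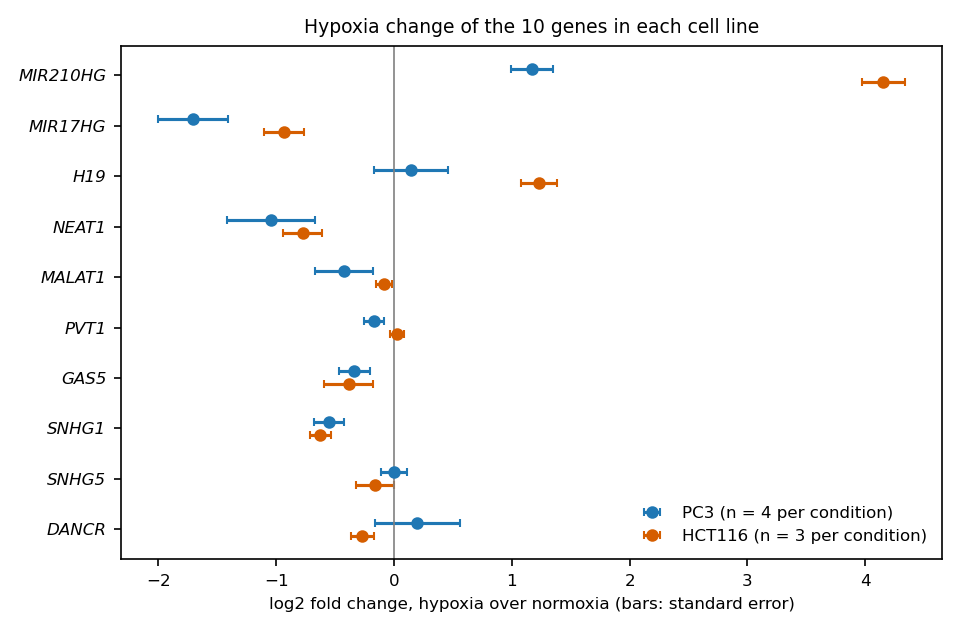
Log2 fold change (hypoxia over normoxia) of the 10 genes in PC3 (blue, n = 4 per condition) and HCT116 (orange, n = 3 per condition), with the standard error as bars. MIR210HG lies at 1.17 and 4.15 and MIR17HG at −1.71 and −0.93, while H19 is at 0.14 in PC3 and 1.23 in HCT116.

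In normoxia 6 of the 8 genes not chosen by fold change passed the threshold between the lines, all 6 higher in HCT116, where 81.3% of all genes tested passed and 38.9% were higher in HCT116. Besides H19, MALAT1, PVT1 and SNHG5, these included GAS5 (1.52 ± 0.20, adjusted p = 3.63e-06) and SNHG1 (0.80 ± 0.13, adjusted p = 3.23e-05). NEAT1 was at −0.53 ± 0.34 (adjusted p = 0.168) and DANCR at 0.58 ± 0.32 (adjusted p = 0.108), with lines that did not overlap for DANCR. DANCR passed without PC3 normoxia replicate 4 (adjusted p = 0.0364) or PC3 hypoxia replicate 1 (adjusted p = 0.0488). Its adjusted p was 0.255 without PC3 normoxia replicate 1.

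Per kilobase of total exon length, SNHG1 had the highest level of the members in both lines in normoxia. It stood at 18.1 ± 1.94 CPM per kb in PC3 and 31.5 ± 4.15 in HCT116. In PC3 DANCR, MALAT1, GAS5 and NEAT1 followed at 6.63, 5.86, 4.92 and 4.33, each overlapping the next in its range over libraries, then MIR210HG at 1.11, SNHG5 at 0.436, PVT1 at 0.337, MIR17HG at 0.234 and H19 at 0.0977. In HCT116 the order was MALAT1 at 16.9, GAS5 at 14.1 and DANCR at 9.94, which overlapped in turn, NEAT1 at 3.003 and SNHG5 at 2.95, which overlapped, H19 at 1.249 and PVT1 at 1.19, which overlapped, MIR17HG at 0.352 and MIR210HG at 0.206. With the longest or the canonical transcript as the length, SNHG1 stayed first and H19 (PC3) or MIR210HG (HCT116) last, while those between changed places. The lengths are from the GENCODE annotation and the counts are over RefSeq genes, so the bases counted may differ. Polyadenylated RNA was selected, so transcripts or ends without a poly(A) tail, such as that of long NEAT1, may be missed in this order.

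**Figure D5:**
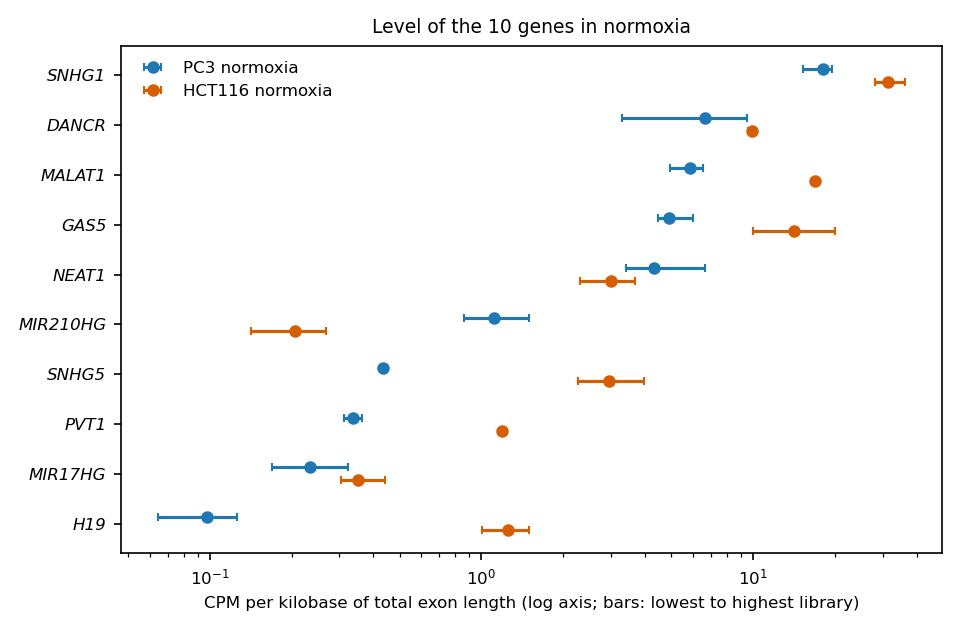
Level of the 10 genes in normoxia as CPM per kilobase of total exon length (log axis) in PC3 (blue) and HCT116 (orange), points for the mean and bars for the lowest to the highest library. SNHG1 is at 18.1 and 31.5 CPM per kb, and H19 moves from 0.0977 in PC3 to 1.249 in HCT116.

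The genes whose pattern over the 14 libraries was most like that of each member, by Pearson's r of log2 CPM centred within each line among 12638 genes, are given as a description, since all points share libraries and condition. For MIR210HG they were BNIP3L (r = 0.993), PLOD2 (r = 0.991) and FAT4 (r = 0.987). MIR17HG was most like DNAH14 (r = 0.971), H19 most like MYOM2 (r = 0.958), NEAT1 most like SLC26A11 (r = 0.965), MALAT1 most like GRIPAP1 (r = 0.970) and SNHG1 most like TRMT13 (r = 0.975). DANCR was most like SURF2 (r = 0.970), PVT1 most like ZNF622 (r = 0.944), SNHG5 most like TMEM126B (r = 0.917) and GAS5 most like MAT2B (r = 0.891). Among the members themselves SNHG1 and MIR17HG had the highest r (0.941), and NEAT1 and MALAT1 had 0.847.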

How the data were processed

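Per the labels and the study's methods, polyadenylated RNA was selected and sequenced as paired ends. The authors aligned reads with HISAT2 2.05 to the ERCC spike-ins and then to GRCh37, and deposited raw counts per RefSeq gene from HTSeq 0.5.4p3 (intersection-strict). The spike-in counts were not used here. Strandedness and RefSeq release are not given in the sources used here. Whether reads of overlapping genes on the opposite strand were counted for a member is therefore not known. Scaling by TMM holds the bulk of genes constant, so a change common to all RNA is not seen.

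From these counts, edgeR 4.0.16 (R 4.3.3) was run in each line on 14309 (PC3) and 14120 (HCT116) genes (filterByExpr, TMM, quasi-likelihood test, Benjamini-Hochberg over all genes, threshold 0.05) and over all 14 libraries for differences between lines. SE is the unshrunk log2 fold change over the square root of F. CPM is on the 14-library TMM scale. Alternatives included DESeq2 1.42.0, other scalings and filters, and leaving out each library. The fits were tested on simulated data with independent libraries and the same spread for every gene. That test does not cover the deviations shared by PC3 libraries of the same number.

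In PC3, deviations from the group means correlated between libraries of the same number (r = 0.832, 0.523, 0.345 and 0.413), and each library correlated best with its own number, so the numbers were taken to pair. Replicates differed by far more than counting noise. The study calls them biological replicates. The floor of 3 counts per library covers counting error only, while SE and SD include the spread between replicate libraries.

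The members and gene lists were chosen with earlier results of these data known. Named genes are the members, the nearest tested neighbours and the genes most alike. From each list all genes, or up to 3 rises and 3 falls with a mean of at least 1 CPM, could be named. The exceptions SNHG4, SNHG6, SNHG9, SNHG16, ZFAS1, TINCR in HCT116 and SNORD22 were named after their values were seen. Some results, among them neighbouring or listed genes, are not reported here.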

Additional observations from a re-analysis of the deposited data

Results flagged for a closer look

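Within PC3, 3 of the 20 groups of 4 libraries had 1 value far from the rest, where chance gives about 1. MIR17HG was at 0.447 CPM in PC3 hypoxia replicate 4 against 1.02 to 1.10 CPM in the others. NEAT1 was at 152 CPM in PC3 normoxia replicate 1 against 77.8 to 86.6 CPM. GAS5 was at 29.7 CPM in PC3 normoxia replicate 4 against 22.1 to 23.1 CPM. The hypoxia change of MIR210HG differed between the lines by 2.97 on the log2 scale (HCT116 minus PC3), with the normoxia and hypoxia libraries apart in both. Since the gene was chosen by its rise in HCT116, this is a description.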

How the results depend on the processing

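In PC3 the members past the threshold numbered 3, and 6 with the replicate block, MIR210HG and MIR17HG being counted each time. For the difference between the lines they numbered 1, 2 with DESeq2 and 3 with the replicate block within line, MIR210HG being counted each time although chosen by its fold change. Of all genes 2.32%, 6.03% and 8.43% passed in these settings. The other snoRNA hosts in PC3 numbered 3, 5 with total counts, 7 with the block and 1 to 4 with 1 library left out, and in HCT116 5, 3 in 1 fit over both lines and 5 to 8 with 1 library left out. The other microRNA hosts and long noncoding RNAs in PC3 numbered 3, 6 with the block and 0 to 3 with 1 library left out, and in HCT116 6, and 3 in 1 fit. Of all genes in PC3 11.3% passed, 16.0% with total counts, 28.5% with the block and 3.83% to 14.4% with 1 library left out. In HCT116 25.9% of all genes passed, 11.2% in 1 fit over both lines and 17.9% to 23.4% with 1 library left out. The cause of these changes in number was not tested.

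No called value changed sign. Values near 0 did: SNHG5 in PC3 (0.0073 with median-of-ratios scaling, 0.0052 with DESeq2, 0.0643 without both libraries of number 1, an alternative chosen after seeing the data, and −0.0611 to 0.0705 with 1 library left out) and PVT1 in HCT116 (−0.0666 with total counts, −0.0020 to 0.0390 with 1 left out). With 1 library left out H19 in PC3 ranged from −0.12 to 0.28, DANCR in PC3 from −0.10 to 0.42 and SNHG5 in HCT116 from −0.33 to 0.11. The differences between the lines then ranged from −0.0224 to 0.58 for NEAT1, −0.25 to 0.29 for GAS5, −0.18 to 0.0293 for SNHG1 and −0.33 to 0.10 for SNHG5.

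Total counts moved the median of all genes to −0.10 in PC3 and −0.09 in HCT116, and the share of calls that were higher from 53.3% to 24.5% and from 56.3% to 29.0%. Upper-quartile scaling gave 39.4% in PC3 and, for the difference between the lines, 70.7% against 56.5%. In HCT116 the numbers did not pair the libraries (r = 0.0664, 0.373 and −0.0751), and there the block took DANCR from an adjusted p of 0.0591 to 0.0391. Between the lines in normoxia, where numbers pair no library of one line with the other, the block gave −0.71 for NEAT1 (adjusted p = 0.0497) and 0.90 for DANCR (adjusted p = 0.00240). Leaving out 1 library leaves 2 in some HCT116 groups, with the spread pooled. Depth limits H19 in PC3 and the small RNA rows.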
